A study of Rattus norvegicus with 6 samples.

Results

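Of the matrix metalloproteinases in these rat tail discs, 10 genes are followed here as members, namely collagenases (Mmp8 and Mmp13), stromelysins (Mmp3, Mmp10 and Mmp11), the macrophage elastase (Mmp12), gelatinases (Mmp2 and Mmp9) and membrane-type enzymes (Mmp14 and Mmp16). All 10 were found by name among the 30562 genes of the deposited count table. Other genes of the family, some of the same classes, are given further below. Matrix metalloproteinases are zinc-dependent enzymes that cut collagens, proteoglycans and other proteins of the extracellular matrix. They are made as inactive proenzymes, are switched on when the propeptide is removed, and are held in check by the tissue inhibitors of metalloproteinases (TIMPs). In the intervertebral disc, collagenases, stromelysins and aggrecanases are known for the breakdown of the fibrillar collagen and aggrecan on which the mechanics of the tissue depend.

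The study asked how transcripts of an injured disc differ after an siRNA vesicle was injected into it. The animals were wild-type Sprague-Dawley male rats, aged 12 weeks, in which a needle puncture of a tail disc served as a model of degeneration. Control discs received 10 μL of PBS, and the other discs received 10 μL of AF-PTK@LEV@SPP1 with 1 mg/kg of siRNA, starting 24 h after the operation. AF-PTK@LEV@SPP1 is a hybrid of liposomes and bacterial outer membrane vesicles that displays a peptide for annulus fibrosus (AF) cells on a linker that reactive oxygen species can cut (PTK), and its cargo is an siRNA to Spp1, which encodes osteopontin. The study's text gives 8 weeks of treatment and tissue from independent rats, whereas the sample labels give 14 days, no treatment of the controls, and macrophages sorted from mice, although they name the rat as organism. The columns of the count table were matched to the groups by their names alone. All libraries share the puncture, and neither uninjured discs nor discs given an empty vesicle were analysed here.

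Each group had 3 libraries of bulk RNA. The PBS replicates 1, 2 and 3 held 17942989, 16565291 and 17489851 counts, and those labelled AF-PTK@LEV@SPP1 (called labelled-treated, since Spp1 does not follow the label) held 17074981, 15560728 and 17855184. Values are given in the order of replicates 1, 2 and 3. At this depth 3 counts, taken as the smallest measured level, correspond to 0.167 to 0.193 CPM (counts scaled to library size), a limit that covers counting error only. Levels are given as CPM after normalization by the trimmed mean of M-values. Col1a1, a fibrillar collagen of fibroblasts, stood at 31909 to 63995 normalized CPM across the 6 libraries, and the macrophage marker with the highest normalized CPM, Csf1r, at 101 to 261. The cells marked by Col1a1 were thus present in every library, which goes against the label of sorted macrophages, and the libraries are described here as disc tissue.

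Spp1, the target of the siRNA, gave no lower level under the treatment label. It had 8120, 4421 and 4425 normalized CPM in the PBS libraries and 8044, 6870 and 8431 in the labelled-treated libraries. The groups overlapped, with a log2 fold change of 0.31 ± 0.37 (SE) and an adjusted p of 0.628 in edgeR's quasi-likelihood test. Directions are therefore given relative to the labels. PBS replicates 2 and 3 varied by only 1.33 times counting noise over 14393 genes, against 51.3 to 107 times in the 5 other pairs within a group, so their counts were summed and treated as 1 sample. All means ± SD and tests rest on 5 distinct samples, 2 of PBS and 3 labelled AF-PTK@LEV@SPP1, and the p-values measure the spread between these samples.

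Most of the 10 metalloproteinases were lower in the labelled-treated libraries. All 10 passed the filter on low counts. At an adjusted p under 0.05 in edgeR, 6 of the 10 (Mmp2, Mmp3, Mmp9, Mmp12, Mmp13 and Mmp14) were lower, against 2.57% of all 15537 genes tested, and 0 were higher, against 1.13%. At an unadjusted p under 0.05 in edgeR, 8 members were lower, against 13% of all genes tested, and 0 were higher, against 12.4%. DESeq2 and limma-voom also called 0 members higher. The median log2 fold change of the 10 was -2.26, and that of all genes tested was 0.05. For 8 members the samples of the groups did not overlap and those labelled AF-PTK@LEV@SPP1 were lower, which also held for 22.2% of all genes tested. With all 6 libraries kept as separate samples, the same edgeR test placed 8 members lower, Mmp10 and Mmp11 in addition, against 9.93% of the genes.

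This count was smaller when single samples were left out. Without PBS replicate 1, edgeR called 5 members lower, against 1.34% of the genes tested in that fit. Without the PBS pair it called 1, against 0.0187%, and without labelled-treated replicate 1 it called 1, against 0.54%. Without labelled-treated replicate 2 or without labelled-treated replicate 3, edgeR called 0 members and 0 genes of the whole table, although 8 and 7 members were lower at an unadjusted p under 0.05, against 10.4% and 9.21% of the genes. Without the PBS pair the adjusted p-values from edgeR were 0.0561 for Mmp3, 0.0820 for Mmp13 and 0.0838 for Mmp14, and the highest among the alternatives were 0.136, 0.136 and 0.150.

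Together the 10 genes held 1.15%, 1.07% and 1.07% of all counts in the PBS libraries and 0.169%, 0.217% and 0.180% in the labelled-treated libraries. The share of these 10 genes in the RNA was thus several times larger in every PBS library than in any labelled-treated library. In such bulk RNA, fewer cells of a type and less RNA per cell cannot be told apart.

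**Figure D1:**
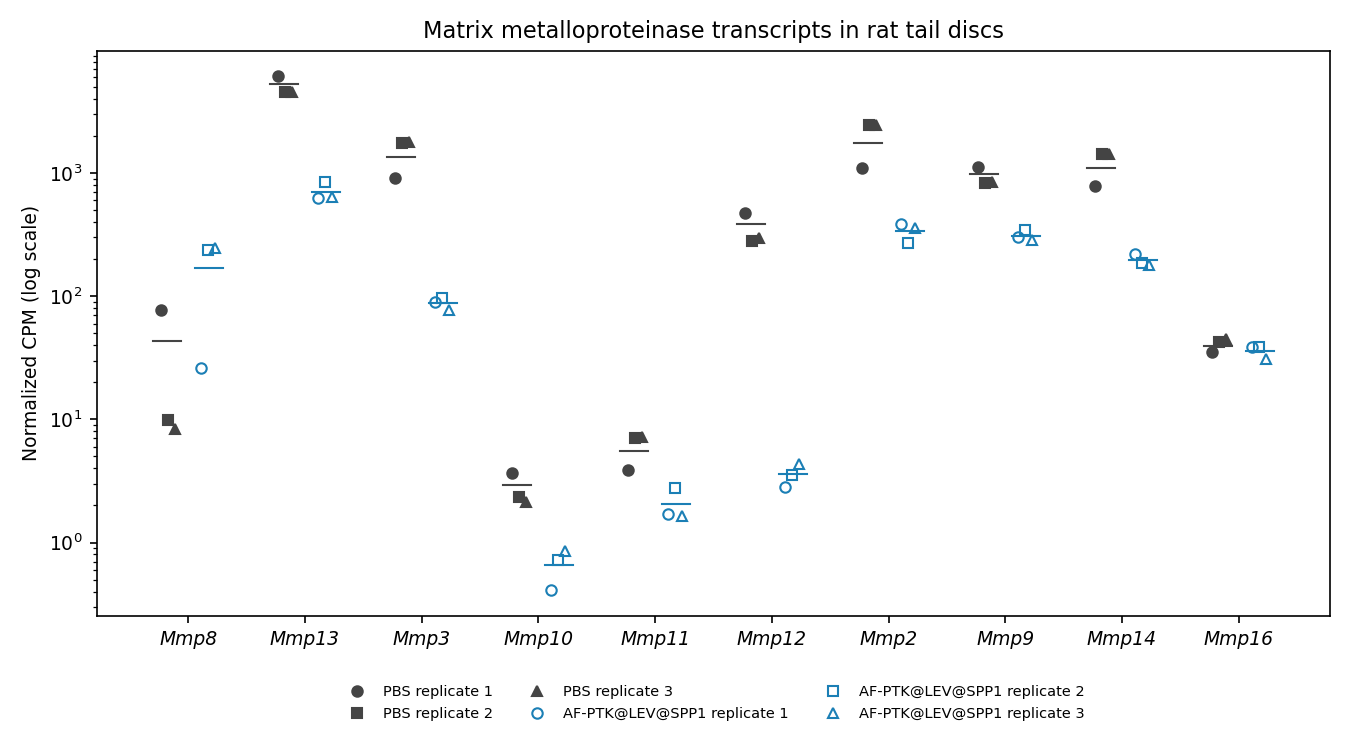
Normalized CPM on a log scale for the 10 metalloproteinases in each of the 6 libraries, with filled symbols for PBS, open symbols for AF-PTK@LEV@SPP1 and a line at each group's mean over distinct samples. The symbols of the groups are apart for 8 genes and overlap for Mmp8 and Mmp16, and Mmp12 lies at 282 to 477 in PBS and at 2.82 to 4.37 in AF-PTK@LEV@SPP1.

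The collagenases, which cleave triple-helical collagen, gave 1 gene that was lower and 1 that did not pass. Mmp13, collagenase 3, is known for the cleavage of type II collagen. It had 6093, 4583 and 4568 normalized CPM in the PBS libraries and 625, 848 and 638 in the labelled-treated libraries. Every PBS library lay far above every labelled-treated library, and replicate 1 was the highest of its group. The means were 5334 ± 1073 (SD, n = 2) and 704 ± 125 (SD, n = 3), a log2 fold change of -2.92 ± 0.27 (SE) with an adjusted p of 0.0196 from edgeR. Mmp13 took 57.4%, 40.3% and 40.0% of the counts on the 10 members in PBS and 36.9%, 41.8% and 34.9% in the labelled-treated libraries.

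Mmp8, collagenase 2, is stored in the granules of neutrophils. It had 77.5, 9.93 and 8.32 normalized CPM in the PBS libraries and 26.0, 236 and 248 in the labelled-treated libraries. Replicates 2 and 3 of the labelled-treated group were high, the near-identical PBS pair was low, and PBS replicate 1 lay above labelled-treated replicate 1, so that the groups overlapped. The log2 fold change was 1.98 ± 1.28 (SE), with a 95% confidence interval from -1.26 to 5.21 and an adjusted p of 0.379 in edgeR. This log2 fold change moved to 4.21 without PBS replicate 1 and to 1.13 without the PBS pair. Within PBS alone, replicate 1 had 8.5 times the level of the pair, and among the labelled-treated libraries the highest had 9.54 times the level of the lowest.

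The levels of neutrophil markers followed those of Mmp8 across the libraries. The 9 markers summed to 1125, 185 and 174 normalized CPM in PBS and to 289, 2854 and 3939 in the labelled-treated libraries, and none was at 0 in all libraries, although Ltf, a granule protein, had at most 1 count in a library. S100a9, a calcium-binding protein of neutrophils and the highest of them, had 457, 85.2 and 78.5 normalized CPM in PBS and 107, 1055 and 1482 in the labelled-treated libraries. The 5 distinct samples stood in the same order for 6 of the 8 neutrophil markers tested as for Mmp8, an order that 235 of the 15537 genes tested (1.51%) had. The adjusted p-values of these 8 markers in edgeR were 0.330 to 0.712. The part of neutrophil number in the level of Mmp8 was not tested.

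**Figure D2:**
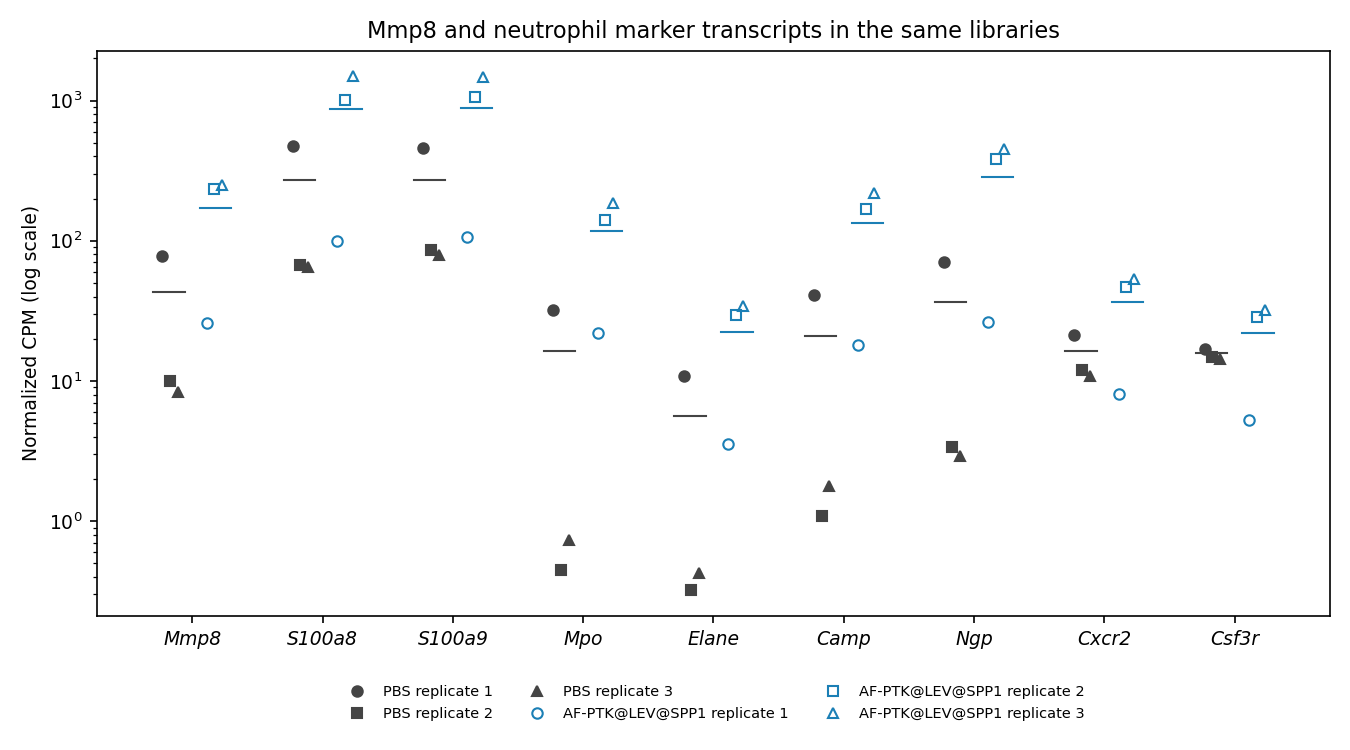
Normalized CPM on a log scale of Mmp8 and 8 neutrophil markers in each of the 6 libraries, with filled symbols for PBS, open symbols for AF-PTK@LEV@SPP1 and a line at each group's mean over distinct samples. Replicates 2 and 3 of the labelled-treated group are the highest for all genes shown, with 236 and 248 for Mmp8.

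Among the stromelysins, Mmp3 was lower and its relatives had few counts. Mmp3, stromelysin 1, degrades proteoglycans and activates other proenzymes, that of Mmp13 among them. It had 919, 1742 and 1787 normalized CPM in the PBS libraries and 89.5, 97.0 and 77.6 in the labelled-treated libraries. The latter lay close together, and the lowest PBS library was still well above them. The means were 1342 ± 598 (SD, n = 2) and 88.1 ± 9.76 (SD, n = 3), with a log2 fold change of -3.93 ± 0.33 (SE), a 15.3-fold difference, and an adjusted p of 0.0194 in edgeR.

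Mmp10, stromelysin 2, had 71, 36 and 35 counts in the PBS libraries and 7, 12 and 15 in the labelled-treated libraries. All of the latter were lower than all PBS libraries, at levels of 0.411 to 0.852 against 2.14 to 3.65 normalized CPM. Its log2 fold change of -2.14 ± 0.44 (SE) had an adjusted p of 0.0681 in edgeR, 0.0205 with the 6 libraries kept apart and 0.00292 in DESeq2, over a range of 0.00292 to 0.186 among its 13 alternatives. Mmp11, stromelysin 3, is a weak protease of matrix that furin activates within the cell. It had 3.90, 7.03 and 7.16 normalized CPM in PBS and 1.70, 2.76 and 1.65 in the labelled-treated libraries, again without overlap. The log2 fold change was -1.44 ± 0.40 (SE), with an adjusted p of 0.111 in edgeR, 0.0298 with the 6 libraries kept apart and 0.0232 in DESeq2, over a range of 0.0232 to 0.383 among 14 alternatives.

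Mmp12 had the largest fold change of the 10 members. This enzyme, macrophage elastase, cleaves elastin and is made mainly by macrophages. Its counts were 9299, 4379 and 4820 in the PBS libraries and 48, 59 and 77 in the labelled-treated libraries. These correspond to 477, 282 and 295 normalized CPM against 2.82, 3.54 and 4.37. The gene was low but measured in each labelled-treated library, and the lowest PBS library was far above the highest of them. The means were 383 ± 134 (SD, n = 2) and 3.58 ± 0.778 (SD, n = 3). The log2 fold change was -6.74 ± 0.33 (SE), a 107-fold difference, with an adjusted p of 0.00863 in edgeR. It passed in 12 of 14 alternatives, the exceptions being those without labelled-treated replicate 2 or 3, with adjusted p-values between 5.02e-87 in DESeq2 and 0.127. The annotated span of Mmp12 overlaps the end of Mmp1b on the other strand, and Mmp1b had at most 6 counts in a library.

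Macrophage markers were measured in the same libraries. The 9 markers summed to 1157, 731 and 727 normalized CPM in the PBS libraries and to 400.2, 690 and 546 in the labelled-treated libraries, with none at 0 in all libraries. Of the 9, 8 had log2 fold changes below 0, and the median was -0.88. Csf1r, the receptor of a macrophage growth factor and the highest of them, had 261, 145 and 148 normalized CPM in PBS and 104, 111 and 101 in the other group. Cd68, a lysosomal protein of macrophages and osteoclasts, was the 1 marker of 9 that passed in edgeR, at a log2 fold change of -1.97 ± 0.22 (SE) and an adjusted p of 0.0231. Cd68 passed in 9 of 14 alternatives. With labelled-treated replicate 1, 2 or 3 left out in turn, Cd68 did not pass in edgeR, with adjusted p-values of 0.0565, 0.0679 and 0.139. Its log2 fold change was -1.77 without PBS replicate 1 and -2.16 without the PBS pair, fits that leave 1 PBS sample. With the 6 libraries kept apart, edgeR also called Mrc1, a mannose receptor named after its values were seen, and DESeq2 called Mrc1 and Csf1r, all lower. Cd163, a scavenger receptor that was likewise named after its values were seen, ran the other way, at 54.0, 29.6 and 29.1 normalized CPM in PBS and 47.1, 142 and 88.0 in the labelled-treated libraries. Its log2 fold change was 1.15 ± 0.53 (SE), with an adjusted p of 0.246 in edgeR. The order of the distinct samples for Mmp12 was shared by 1 of the 9 macrophage markers tested. Of the 15537 genes tested, 269 (1.73%) had this order. The part of macrophage number in the level of Mmp12 was not tested.

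Both gelatinases, which digest denatured collagen and basement membrane, were lower. Mmp2, gelatinase A, is made by fibroblasts and other stromal cells. It had 1092, 2448 and 2448 normalized CPM in the PBS libraries and 389, 271 and 359 in the labelled-treated libraries. PBS replicate 1 lay below the PBS pair and above the whole other group, with means of 1770.1 ± 959 (SD, n = 2) and 340 ± 61.3 (SD, n = 3). The log2 fold change of -2.39 ± 0.39 (SE) had an adjusted p of 0.0444 in edgeR, close to the threshold, and of 0.0518 in limma-voom, over a range up to 0.177 among 14 alternatives.

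Mmp9, gelatinase B, is abundant in osteoclasts and neutrophils. It had 1121, 837 and 845 normalized CPM in the PBS libraries and 300.2, 346 and 286 in the labelled-treated libraries. The groups were well apart, and PBS replicate 1 was the highest library. The means were 981 ± 199 (SD, n = 2) and 311 ± 31.3 (SD, n = 3), with a log2 fold change of -1.66 ± 0.19 (SE) and an adjusted p of 0.0260 in edgeR. Without PBS replicate 1 the adjusted p was 0.0565 in edgeR, over a range up to 0.150 among 14 alternatives.

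Osteoclast markers lay low in the same libraries as Mmp9. The 8 markers summed to 5422, 3423 and 3433 normalized CPM in PBS and to 827, 758 and 488 in the labelled-treated libraries, and none was at 0 in all libraries. The highest was Ctsk, the collagen-degrading cathepsin K, with 4088, 2707 and 2694 normalized CPM in PBS and 573, 483 and 285 in the other group. In edgeR 4 of the 8 passed as lower, namely Ctsk, the acid phosphatase Acp5, the fusion protein Dcstamp and the proton pump subunit Atp6v0d2. Dcstamp had a log2 fold change of -3.34 ± 0.22 (SE) and Ctsk one of -2.93 ± 0.38 (SE), with adjusted p-values of 0.0119 and 0.0306 in edgeR. In limma-voom Atp6v0d2 did not pass, with 0.0559. Without PBS replicate 1, or without labelled-treated replicate 1, Dcstamp alone passed in edgeR, and with any other sample left out none of the 4 passed. The 9 neutrophil markers summed to 1125, 185 and 174 normalized CPM in PBS and to 289, 2854 and 3939 in the labelled-treated libraries. The order of the distinct samples for Mmp9 was shared by 2 of 8 osteoclast markers and 0 of 8 neutrophil markers tested. Of the 15537 genes tested, 210 (1.35%) had this order. The part of osteoclast number in the levels of Mmp9 was not tested.

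Of the membrane-type enzymes, Mmp14 was lower and Mmp16 did not pass. Mmp14, membrane-type 1, sits on the cell surface, cleaves collagen there and activates the proenzyme of Mmp2. It had 783, 1425 and 1420 normalized CPM in the PBS libraries and 222, 185 and 181 in the labelled-treated libraries. No library of one group reached the range of the other, and PBS replicate 1 was again below the pair. The means were 1103 ± 452 (SD, n = 2) and 196 ± 22.6 (SD, n = 3), with a log2 fold change of -2.50 ± 0.29 (SE) and an adjusted p of 0.0260 in edgeR.

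Mmp16, membrane-type 3, had 35.1, 42.1 and 45.2 normalized CPM in PBS and 38.8, 38.7 and 30.7 in the labelled-treated libraries. The groups overlapped, since PBS replicate 1 lay below labelled-treated replicates 1 and 2. Its log2 fold change of -0.13 ± 0.17 (SE) had a 95% confidence interval from -0.56 to 0.29 and an adjusted p of 0.653 in edgeR.

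The 2 PBS samples differed in the members. Mmp2, Mmp3, Mmp11 and Mmp14 were higher in the near-identical pair than in PBS replicate 1, by 1.82 to 2.24 times. Mmp9, Mmp10, Mmp12 and Mmp13 were higher in replicate 1, by 1.33 to 1.65 times. Mmp16 was higher in the pair by 1.24 times, and Mmp8 in replicate 1 by 8.5 times. Replicate 1 was also the higher PBS sample for the summed markers of 8 of the 12 cell lists. Leaving out PBS replicate 1 moved the log2 fold change of Mmp2 to -2.86 and that of Mmp3 to -4.33, and leaving out the pair moved them to -1.69 and -3.39. For Mmp12 the corresponding log2 fold changes were -6.34 and -7.06, and for Mmp8 they were 4.21 and 1.13.

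Of the members, 5 lie in 1 cluster on chromosome 8. In the authors' annotation of rat genes, 10 metalloproteinase genes occupy positions 4497960 to 4855902 of that chromosome, a stretch of 358 kb with 0 other genes. Mmp13 (4497960 to 4508239), Mmp12 (4581785 to 4599611), Mmp3 (4640416 to 4653961) and Mmp10 (4689840 to 4697748) lie in this order on the plus strand with negative log2 fold changes, and Mmp8 (4724029 to 4733520) follows Mmp10 with a positive one. Mmp1b lies between Mmp12 and Mmp3, on the minus strand, and Mmp1 lies between Mmp3 and Mmp10. These 2 genes and Mmp27, Mmp20 and Mmp7, which follow Mmp8, had at most 13 counts in a library and were not tested. The submitters' processing notes name mm10, a mouse build, and no rat build is given in the sources used here for these coordinates. The members outside the stretch are Mmp2 on chromosome 19, Mmp9 on chromosome 3, Mmp11 on chromosome 20, Mmp14 on chromosome 15 and Mmp16 on chromosome 5.

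Lower transcripts were not limited to the metalloproteinases of this region. Within 500 kb on either side of the stretch, 9 of 11 genes were tested, and 2 of them, named after their values were seen, passed in edgeR. Birc3, an inhibitor of apoptosis and a target of NF-kappa-B, had 35.3, 29.7 and 29.6 normalized CPM in PBS and 5.99, 6.24 and 7.10 in the labelled-treated libraries. Its log2 fold change was -2.33 ± 0.15 (SE), with an adjusted p of 0.0119 in edgeR, and that of its relative Birc2 was -0.63 ± 0.11 (SE), with 0.0484. Birc2 passed in 5 of 14 alternatives, with adjusted p-values of 0.0508 in edgeR with the replicate block, 0.0556 in limma-voom and up to 0.194. With the 6 libraries kept apart, edgeR called 3 flanking genes lower, Dcun1d5 in addition, and 2 higher, Cep126 and a gene without a symbol, and DESeq2 called the same 5. The latter 2 had log2 fold changes of 1.07 ± 0.29 (SE) and 2.33 ± 0.53 (SE), with adjusted p-values of 0.104 and 0.0795 in the 5-sample edgeR fit. All 5 were named after their values were seen.

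**Figure D3:**
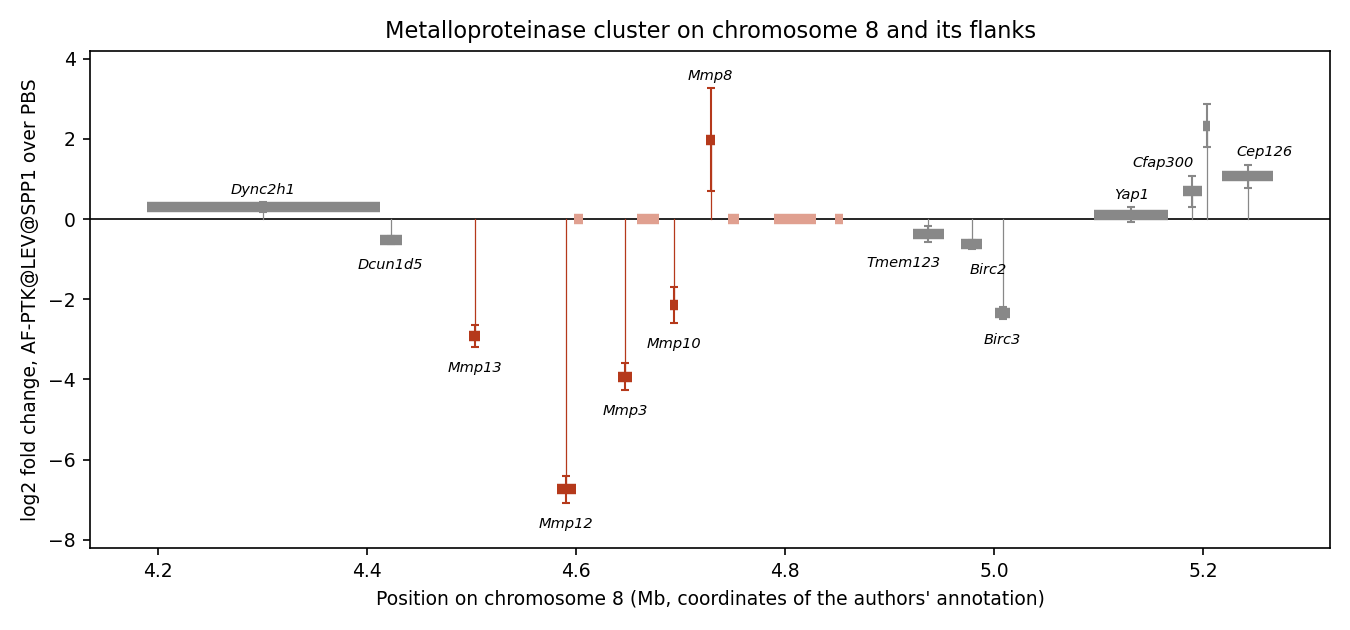
Log2 fold change of AF-PTK@LEV@SPP1 over PBS against position on chromosome 8, with red bars for metalloproteinases, grey bars for flanking genes, bar width for the annotated span, error bars of 1 SE and pale bars at 0 for metalloproteinases with too few counts to test. Mmp13, Mmp12, Mmp3 and Mmp10 lie between -2.14 and -6.74, and Mmp8 lies at 1.98 with the widest error.

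Promoters are described here apart from the fold changes, and no link between them was tested. RefSeq promoters of the GRCr8 build, covering 250 bases before to 50 bases after the gene start, were matched by symbol for 6 of the 10 members. Those of Mmp2, Mmp9, Mmp14 and Mmp16 were not matched. The matched promoters were searched on both strands for the letters TGANTCA of the AP-1 element, TATAAA of the TATA box and AGGAAG of an ETS element. TGANTCA was found once each in Mmp3, Mmp10, Mmp12 and Mmp13 and not in Mmp8 or Mmp11, and 7.33% of 33469 rat promoters of this length hold it. TATAAA was found in 5 of the 6, all but Mmp11, and in 14.2% of all promoters. AGGAAG was found in Mmp3, Mmp8 and Mmp13, and in 34.5% of all promoters. A match of letters is a description and was not tested as a binding site.

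The stretch of 110 bases that holds the AP-1 match, where there is one, and the TATA match nearest to the gene start is shown for the 5 cluster members, all on the plus strand of chromosome 8 in GRCr8, with the AP-1 letters and the TATA letters in capitals. It spans chr8:12782729-12782838 for Mmp13, chr8:12866552-12866661 for Mmp12, chr8:12925181-12925290 for Mmp3, chr8:12974607-12974716 for Mmp10 and chr8:13008790-13008899 for Mmp8.
Mmp13: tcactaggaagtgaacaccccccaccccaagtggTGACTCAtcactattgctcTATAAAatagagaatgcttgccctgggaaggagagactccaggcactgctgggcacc
Mmp12: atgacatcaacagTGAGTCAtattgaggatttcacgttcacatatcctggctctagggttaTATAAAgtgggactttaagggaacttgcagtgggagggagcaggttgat
Mmp3: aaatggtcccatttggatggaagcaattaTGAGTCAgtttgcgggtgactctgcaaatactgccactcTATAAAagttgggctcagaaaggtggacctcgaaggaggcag
Mmp10: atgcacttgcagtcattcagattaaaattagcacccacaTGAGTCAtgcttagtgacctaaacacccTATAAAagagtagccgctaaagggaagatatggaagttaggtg
Mmp8: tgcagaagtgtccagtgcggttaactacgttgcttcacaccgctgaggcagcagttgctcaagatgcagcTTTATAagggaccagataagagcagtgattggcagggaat
From the first AP-1 letter to the first TATA letter there are 19 bases in Mmp13, 48 in Mmp12, 39 in Mmp3 and 28 in Mmp10. The Mmp8 stretch has the TATA letters, there on the other strand, and no AP-1 letters.

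Other metalloproteinases of the table were mostly not called. Of 12 further family genes, 7 were tested, and in edgeR 1 was lower, and the median log2 fold change was 0.21. Mmp19, which cleaves basement membrane proteins, was the one that passed. It had 101, 218 and 220 normalized CPM in the PBS libraries and 24.1, 13.8 and 17.2 in the labelled-treated libraries, with no overlap and the PBS pair highest. Its log2 fold change was -3.13 ± 0.40 (SE), with an adjusted p of 0.0306 in edgeR. The log2 fold changes of Mmp15, Mmp17, Mmp23, Mmp24, Mmp25 and Mmp28 were between -0.33 and 0.92, and their adjusted p-values in edgeR were 0.309 to 0.727. Mmp1, Mmp7, Mmp20, Mmp21 and Mmp27, and Mmp1b of the cluster, which was not on this list, had at most 13 counts in a library, which did not allow a test.

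Of the inhibitors of these enzymes, the 5-sample edgeR fit called 1 of 6 tested, Timp1, and the median log2 fold change was -0.62. Timp1, a secreted inhibitor of most soluble metalloproteinases, had 501, 552 and 557 normalized CPM in the PBS libraries and 72.3, 55.8 and 80.5 in the labelled-treated libraries. It was lower in each of the latter than in any PBS library, with a log2 fold change of -2.93 ± 0.20 (SE) and an adjusted p of 0.0119 in edgeR. Timp2, which also takes part in the activation of the Mmp2 proenzyme by Mmp14, had 703, 1182 and 1178 in PBS against 532, 338 and 419, with an adjusted p of 0.107 in edgeR. Timp3, which is bound to matrix, overlapped between the groups at 321 to 519 against 308 to 540. Timp4 and Reck, a membrane-anchored inhibitor, had log2 fold changes of 2.18 ± 0.59 (SE) and 0.85 ± 0.22 (SE) and no overlap between the groups, but did not pass in edgeR, with adjusted p-values of 0.108 and 0.101. A2m, a general protease inhibitor of plasma, had a log2 fold change of -1.90 ± 0.47 (SE) and an adjusted p of 0.0917 in edgeR. With the 6 libraries kept apart, edgeR also called Timp2 and A2m lower and Timp4 and Reck higher, with adjusted p-values of 0.0277, 0.0266, 0.0292 and 0.0393. DESeq2 did likewise, with 0.0067, 0.00231, 0.00395 and 0.0091.

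Among genes that act on the proenzymes, 2 of 8 tested were lower in edgeR, and the median log2 fold change was -0.97. Plaur, the urokinase receptor that focuses plasmin formation at the cell surface, had 32.9, 39.6 and 46.3 normalized CPM in PBS and 13.3, 13.8 and 14.4 in the labelled-treated libraries. The groups were apart, with a log2 fold change of -1.46 ± 0.15 (SE) and an adjusted p of 0.0221 in edgeR. Serpine2, an inhibitor of plasminogen activators and the highest of the list in normalized CPM, had a log2 fold change of -1.58 ± 0.22 (SE) and an adjusted p of 0.0345. Of 6 partners that hold or clear metalloproteinases, 1 was lower in edgeR. It was Cd44, a hyaluronan receptor that docks Mmp9 and Mmp14, with 497, 552 and 565 normalized CPM in PBS against 139, 106 and 126. Its log2 fold change was -2.09 ± 0.17 (SE), with an adjusted p of 0.0174 in edgeR. Lrp1, the endocytic receptor that clears secreted metalloproteinases and the highest of the partners in normalized CPM, overlapped between the groups at a log2 fold change of -0.26 ± 0.33 (SE).

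Cytokines and receptors known to induce metalloproteinases were lower for 4 of 8 tested in edgeR, and the median log2 fold change was -1.60. Il1a, an alarm cytokine, had 188, 182 and 202 counts in the PBS libraries and 0, 3 and 2 in the labelled-treated libraries. In the latter it was at or under the smallest measured level, so that no fold is given, and its adjusted p in edgeR was 0.0213. Il6 had 164, 286 and 270 counts in PBS and 2, 6 and 8 in the other group, with an adjusted p of 0.0230 in edgeR, and did not pass in limma-voom, with 0.0578. The receptors Il1r1 and Osmr had log2 fold changes of -1.32 ± 0.17 (SE) and -1.74 ± 0.24 (SE), with adjusted p-values of 0.0295 and 0.0339 in edgeR. Il1r1 binds interleukin 1 and Osmr is a receptor subunit for oncostatin M, and both were lower in each labelled-treated library than in any PBS library.

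Of the transcription factors that bind metalloproteinase promoters, 2 of 14 tested were lower in edgeR, and the median log2 fold change of the 14 was -0.53. Fosl2, an AP-1 subunit, had 83.5, 100.3 and 103 normalized CPM in PBS and 42.9, 34.5 and 39.1 in the labelled-treated libraries. Nfkb2, a subunit of NF-kappa-B, had 30.0, 31.6 and 35.8 against 14.5, 17.5 and 15.8. Neither gene overlapped between the groups. Their log2 fold changes were -1.26 ± 0.15 (SE) and -1.0 ± 0.14 (SE), with adjusted p-values of 0.0262 and 0.0337 in edgeR. Other AP-1 subunits were named after their values were seen. Fos, Fosb, Jun and Jund overlapped between the groups, at 0.07 ± 0.80, -0.03 ± 0.77, -0.25 ± 0.46 and -0.07 ± 0.30 (SE). Fosl1 did not overlap, at -1.73 ± 0.35 (SE), with an adjusted p of 0.0647 in edgeR. Ets1, the factor with the highest normalized CPM, had a log2 fold change of -0.55 ± 0.18 (SE) and an adjusted p of 0.140 in edgeR. With the 6 libraries kept apart, edgeR called 7 of the 14 factors lower, and DESeq2 called the same 7. Ets1 was among them, with adjusted p-values of 0.0395 in that edgeR fit and 0.032 in DESeq2. Junb was listed at 0 in all 6 libraries, and nothing is read from it.

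The aggrecanases, related enzymes that cut aggrecan, were lower for 3 of 6 tested in edgeR, with a median log2 fold change of -1.34. Adamts4 had 37.4, 89.4 and 86.6 normalized CPM in PBS and 8.28, 6.60 and 9.26 in the labelled-treated libraries, and Adamts5 had 45.5, 77.6 and 75.5 against 20.6, 19.7 and 19.6. As with Mmp2, Mmp3 and Mmp14, the PBS pair was the highest and PBS replicate 1 lay between it and the other group. The log2 fold changes were -2.97 ± 0.39 (SE) for Adamts4, -1.62 ± 0.23 (SE) for Adamts5 and -2.19 ± 0.32 (SE) for Adamts1, with adjusted p-values of 0.0316, 0.0367 and 0.0381 in edgeR. In limma-voom Adamts4 did not pass, with 0.0538.

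Genes for the substrates differed between tests in their calls. In edgeR 1 of 10 was lower, and the median log2 fold change was 0.21. With the 6 libraries kept apart edgeR called 4 lower (Col3a1, Col4a1, Col4a2 and Fn1), DESeq2 called the same 4 lower and Col1a2 higher, and limma-voom called 0. Of these genes, Col4a2, Col1a2, Fn1 and Col3a1 were named after their values were seen. Fn1, fibronectin, had a log2 fold change of -1.70 ± 0.46 (SE) and an adjusted p of 0.107 in edgeR, and Col3a1, a fibrillar collagen, had -1.26 ± 0.41 (SE) and 0.144. Col4a1, a basement membrane collagen, had 1024, 1496 and 1519 normalized CPM in PBS and 490, 529 and 536 in the labelled-treated libraries, with a log2 fold change of -1.29 ± 0.22 (SE) and an adjusted p of 0.0475 in edgeR. Col1a1, the highest of the list, had 31909, 44832 and 45136 against 63995, 45735 and 51072. Its groups were only just apart, and the log2 fold change of 0.48 ± 0.50 (SE) had an adjusted p of 0.582 in edgeR. Over all these lists around the members, 65 genes were tested and 15 were lower in edgeR. The count of higher genes was 0, with 3 at an unadjusted p under 0.05, 3 in DESeq2 and 0 in limma-voom. Without the PBS pair, or without labelled-treated replicate 2 or 3, edgeR called 0 genes of these lists.

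Markers of other cell types in the discs also differed between libraries, and their part in the metalloproteinase values was not tested. The 6 notochord and nucleus pulposus markers found summed to 755, 324 and 317 normalized CPM in the PBS libraries and to 4213, 1495 and 1778 in the labelled-treated libraries, led by Cd24, with Noto at 0 in every library. The 4 skeletal muscle markers found, led by Acta1, summed to 773, 994 and 1009 against 789, 8107 and 2077, and the 5 erythroid markers, led by Slc4a1, to 114, 39.8 and 35.2 against 87.5, 1437 and 674. Labelled-treated replicates 2 and 3 were thus above the PBS libraries in muscle and blood markers, replicate 2 the most. The 5 adipocyte markers, led by Adipoq, summed to 254, 42.2 and 39.6 against 530, 964 and 397, and the 6 lymphocyte markers, led by Cd79a, to 41.1, 15.2 and 14.2 against 18.1, 45.3 and 67.0. Of the 6 lymphocyte markers, 3 had log2 fold changes below 0, and the median was -0.06.

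The matrix-forming cells were followed in the same way. The 8 chondrocyte markers, led by Col2a1, summed to 21347, 31436 and 31301 normalized CPM in PBS and to 38024, 27086 and 42534 in the labelled-treated libraries. Of these 8, 4 had log2 fold changes below 0, and the median was -0.29. The 9 markers of annulus and tendon fibroblasts, led by Col1a1, summed to 59369, 85482 and 86283 against 118228, 84390 and 101778. Of these 9 markers, 4 had log2 fold changes below 0, and the median was 0.48. The 5 endothelial markers, led by Pecam1, summed to 461, 569 and 555 against 345, 400 and 398. The 7 markers of hypertrophic chondrocytes and osteoblasts, led by Ibsp, summed to 4917, 2277 and 2274 against 2491, 3367 and 1993. Of these 7 markers, 6 had log2 fold changes below 0, and the median was -0.43. Of these 9 lists, edgeR called 1 gene, Cd2 of the lymphocytes, at a log2 fold change of -2.02 ± 0.24 (SE) and an adjusted p of 0.0260, and limma-voom called the same gene. Cd2 passed in 9 of 14 alternatives. With labelled-treated replicate 1, 2 or 3 left out in turn, Cd2 did not pass in edgeR, with adjusted p-values of 0.0637, 0.0888 and 0.137. Its log2 fold change was -1.83 without PBS replicate 1 and -2.19 without the PBS pair, fits that leave 1 PBS sample. With the 6 libraries kept apart, edgeR called 7 genes of these lists lower and 3 higher (Cd24, Krt18 and Lep), the latter 2 named after their values were seen. DESeq2 called 6 lower and 11 higher.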

How the data were processed

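Intervertebral disc tissue was profiled by bulk RNA-seq. The authors deposited raw counts per Ensembl rat gene and library, without normalization, and the submitters' processing notes name FastQC, Trimmomatic, HISAT2, featureCounts and DESeq2, with no versions, and the mouse build mm10. The rule for strand and for shared reads is not given in the sources used here, so reads of overlapping genes cannot be told apart. Libraries held 15560728 to 17942989 counts.

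PBS replicates 2 and 3 were summed as 1 sample. The 5 samples were fitted with edgeR 4.0.16 (R 4.3.3) using TMM factors, filterByExpr at a minimum count of 10, the quasi-likelihood test without covariates, and Benjamini-Hochberg adjustment over 15537 genes. The common biological coefficient of variation was 0.302. The script was first tested on simulated data. Alternatives were 6 separate libraries, the replicate block, DESeq2 1.42.0, limma-voom (limma 3.58.1), other normalizations and filters, a log2 fold change above 1, and leaving out each sample.

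The members and gene lists were chosen with earlier results of these data known. Genes named in the text are the members, the tested genes of the other metalloproteinases and inhibitors, up to 6 called genes of each other list with its highest gene, and Spp1. The 5 flanking genes, 4 substrate genes, Mrc1, Cd163, Krt18 and Lep are exceptions, as are Fos, Fosb, Fosl1, Jun and Jund. Mmp1b, Ltf, Junb, Noto and the untested family genes were named for their low counts. Names were matched as the table gives them, and Krt19, Myh1 and Mylpf were not matched. Exon lengths and protein sequences were not used here. CPM also depends on transcript length, so the highest gene of a list is the one with the most normalized CPM over the distinct samples.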

Additional observations from a re-analysis of the deposited data

How the results depend on the processing

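The alternatives were compared for 69 named genes, without Fos, Fosb, Fosl1, Jun and Jund. Where all samples were kept, 565 of 617 log2 fold changes kept their direction and side of the threshold. Of the others, 10 fell short of it, 42 passed it in addition and 0 changed sign. For the 10 members these were 83, 2, 4 and 0 of 89. With the 6 libraries separate, edgeR called 1494 genes lower and 1233 higher, and 32 lower and 2 higher in the lists around the members. DESeq2 called 1440 lower and 1132 higher, and 32 and 3 in these lists. Both called 8 members lower, and limma-voom called 5 beside 315 genes of the table lower. Other normalizations and filters gave 6, beside 376 to 510 genes lower. Mmp10 had no value under the filter on CPM.

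The libraries share replicate numbers, but same-number libraries deviated from their group means with correlations of -0.335, -0.306 and -0.0811, so they were not taken as paired. With all 6 libraries and the replicate block, edgeR called 434 genes lower, 307 higher and 5 members lower, and Mmp2 had an adjusted p of 0.0595.

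Leaving out 1 sample at a time, with a lone PBS sample assumed to vary like the other group, gave 0 to 215 genes lower and 0 to 65 higher, 0 to 5 members lower, and 0 to 13 genes of the lists lower. Of 345 log2 fold changes of named genes in these fits, 218 kept direction and side of the threshold, 120 fell short of it and 7 changed sign, and for the members these were 26, 23 and 1 of 50. The log2 fold change ranged from -0.29 to 0.04 for Mmp16, from -0.19 to 0.76 for Mmp24 and from -0.43 to 0.28 for Timp3. It ranged from -0.61 to 0.20 for Lrp1 and from -0.07 to 0.81 for Spp1, and no other gene of these 69 changed sign. The causes were not tested. Mmp10 had 7 to 71 counts in a library, and the 6 family genes left untested had at most 13.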
